A study of Drosophila melanogaster with 4 samples.

Results

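The ORC2 regions of the X chromosome were described by their position, width and replicate agreement in salivary glands taken from Drosophila melanogaster at the wandering third-instar stage. The authors' combined list placed 1195 of its 6587 ORC2 regions on X, and these 1195 were taken by their chromosome label alone. The list of replicate 1 placed 1487 of 8247 peaks on X and that of replicate 2 placed 1962 of 10621. Both libraries are chromatin immunoprecipitations with a rabbit polyclonal antibody to ORC2, each from its own chromatin extraction, and both are labelled as SuUR mutant from a strain kept in the Orr-Weaver laboratory. The strain label also names a transposon and a GFP tag and says that the strain was outcrossed. The mutant allele, the sex of the larvae and the number of glands pooled are not stated. The other entries, labelled wild type (Oregon-R) and described as ORC2 ChIP for extraction 1 and as input for extraction 2, were not analysed here, and the genotypes are not compared. These entries are named as second channels of the same extractions as the mutant ones, and the lists themselves name no genotype. The lists hold positions and scores but no expression values, so the tissue could not be checked against markers. Comparisons were made with arms 2L, 3L and 3R, which held 1202, 1353 and 1475 combined regions.

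ORC2 is a subunit of the origin recognition complex, which binds DNA before replication and loads the helicase at sites from which copying can start. Salivary gland cells copy their genome again and again without dividing, which gives polytene chromosomes, and some stretches of these chromosomes are copied less than the rest. SuUR is the gene known for this underreplication, since stretches that lag in wild-type glands are copied more fully in its mutant. The X chromosome is a single long arm with its centromere near one end, and in the polytene nucleus its euchromatin forms a banded arm like those of the autosomes.

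On X, ORC2 regions lay at a density like that of the autosome arms, in groups separated by long stretches without any. The density was 53.3 regions per Mb on X (95% exact Poisson interval 50.3 to 56.4), against 52.3 on 2L, 55.2 on 3L and 52.9 on 3R. The ratio of X to the 3 autosome arms together was 0.997 (95% exact interval 0.934 to 1.06). In the list of replicate 1 the ratio was 1.00461 (0.947 to 1.06). In replicate 2 X had 87.5 peaks per Mb, against 82.8 on the 3 arms together, and the ratio was 1.06 (1.00446 to 1.11). The regions covered 2.85% of X, against 2.90% of 2L, 2.93% of 3L and 2.99% of 3R. Lengths were taken up to the last peak of any list, which gave 22.4 Mb for X. All intervals on numbers and shares cover counting error only and treat regions as independent, which grouped regions are not. With 2 libraries of one group, which the labels call separate extractions, no test between samples was possible and no p-value is given.

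Along X the number of regions changed from one 1 Mb bin to the next without a steady trend over most of the arm. Among the 22 whole bins the number ran from 31 to 73 with a median of 51.5. The fullest was bin 17, counted from the telomere and reaching from 16 to 17 Mb, with 73 regions (95% exact Poisson interval 57.2 to 91.8) beside 87 replicate 1 peaks and 119 replicate 2 peaks. Bin 3 held 72 regions and bin 16 held 70. The emptiest whole bin was bin 22, from 21 to 22 Mb, with 31 regions (21.1 to 44.0) beside 42 replicate 1 peaks and 54 replicate 2 peaks. Bin 21 held 36 regions and bin 1, at the telomere, held 37. In the middle of the arm full and sparse bins followed each other, with 44 regions in bin 13, 69 in bin 14, 41 in bin 15 and 70 in bin 16. The bins from 13 to 16 kept this alternation in both libraries, with 64, 86, 54 and 82 peaks in replicate 1 and 76, 100, 82 and 122 in replicate 2. Over the 22 bins the counts of both libraries went together (Spearman's rho 0.82, a description over bins of the same chromosome).

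**Figure D1:**
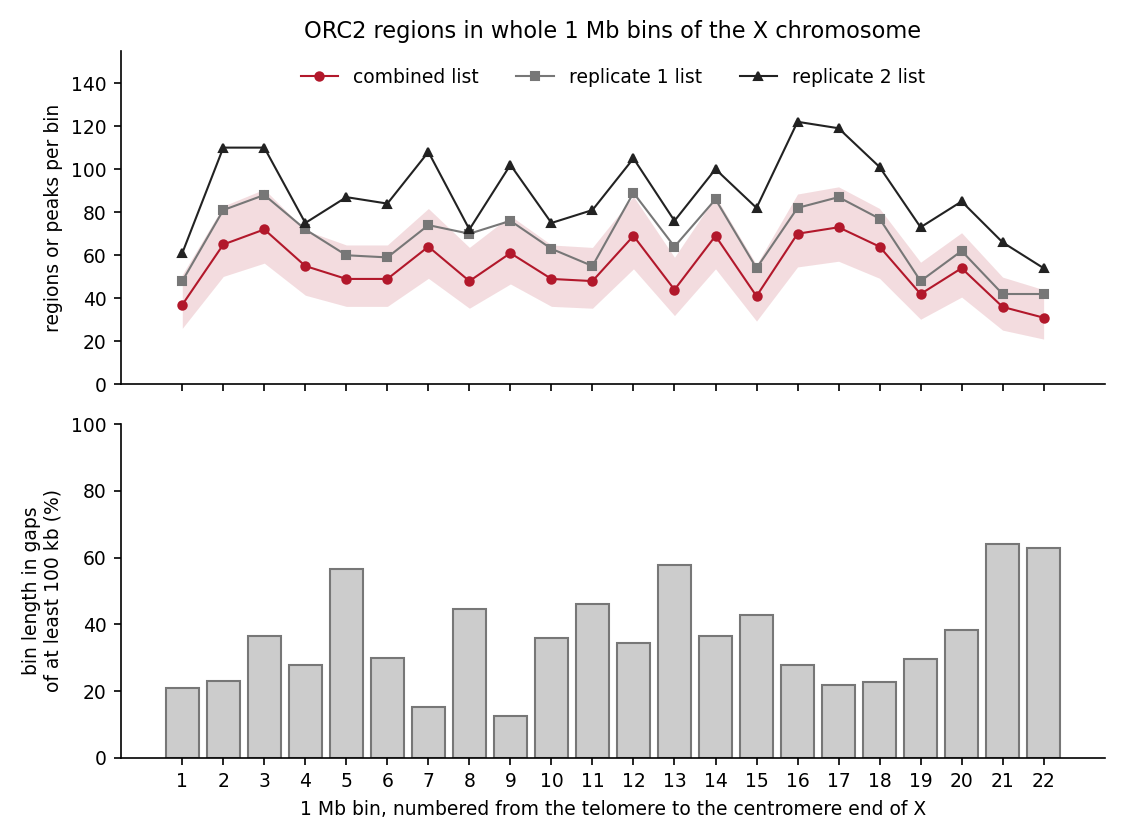
Upper panel: number of combined regions (circles, with 95% exact Poisson interval as a band), replicate 1 peaks (squares) and replicate 2 peaks (triangles) in each of the 22 whole 1 Mb bins of X, numbered from the telomere. Lower panel: share of each bin's length in gaps of at least 100 kb between neighbouring combined regions, in percent. Bin 17 is the fullest with 73 combined regions, and bins 21 and 22 have the fewest regions (36 and 31) and the largest shares in gaps (64.2% and 62.9%).

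The end of X next to the centromere was sparse, and the telomere end was not beyond counting error. The last 2 Mb of X held 54 combined regions, or 27.0 per Mb (95% exact Poisson interval 20.3 to 35.2), against 56.4 per Mb in the middle of the arm. The ratio was 0.479 (0.357 to 0.629) for combined regions, 0.493 for replicate 1 peaks and 0.550 for replicate 2 peaks. The same ratio was 0.497 on 2L (0.371 to 0.654), 0.241 on 3L (0.159 to 0.350) and 1.38 on 3R (1.16 to 1.65). In the combined list the intervals of X and 2L overlapped, that of 3L lay below X and that of 3R above it. In the single lists the interval of 3R also lay above X, but that of 3L, 0.273 to 0.481 in replicate 1 and 0.343 to 0.548 in replicate 2, overlapped X, at 0.381 to 0.628 in replicate 1 and 0.446 to 0.673 in replicate 2. The median width was 524.5 bp in the last 2 Mb of X and 421 bp in the middle of the arm. The first 2 Mb of X held 102 regions, or 51.0 per Mb, and their ratio to the middle of the arm was 0.904 (0.730 to 1.11). The first combined region of X began at position 139783 of FlyBase release 5.1, the release of all positions here, whereas the first peak of replicate 2 began at 8834. Mappability was not measured, so fewer bound sites and sequence unreadable with short reads cannot be told apart near the centromere.

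Bins of X with many regions held narrower ones. Over the 22 whole bins of X, Spearman's rho between the number of combined regions and their median width was -0.76. It was -0.80 for the peaks of replicate 1 and -0.58 for those of replicate 2. On the autosome arms the combined list gave -0.39 over 22 bins of 2L, -0.69 over 24 of 3L and -0.53 over 27 of 3R. For 2L, 3L and 3R in that order, replicate 1 gave -0.45, -0.39 and -0.45, and replicate 2 gave -0.27, -0.12 and -0.20. On X the median width was 365 bp in bin 17, the fullest, and 550 bp in bin 22, the emptiest. The narrowest median, 319 bp, belonged to bin 18 with 64 regions and the widest, 573 bp, to bin 5 with 49. The points share their libraries and peak calls, so the relation is a description.

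The width of ORC2 regions on X was close to that on the autosome arms. The median was 426 bp on X (95% order-statistic interval 405 to 449), against 445 bp on 2L (429 to 464), 432 bp on 3L (411 to 454) and 446 bp on 3R (422 to 464). The middle 80% of X regions lay between 185 and 1042 bp. Of the X regions, 48.5% were wider than the median of the 3 arms together (95% exact binomial interval 45.7 to 51.4). Regions of at least 1 kb numbered 130 on X (10.9%), against 10.8% on 2L, 9.76% on 3L and 13.1% on 3R, and the odds ratio of X to the 3 arms was 0.959 (0.774 to 1.18). In the replicate lists the peaks on X had a median width of 254 bp (replicate 1) and 251 bp (replicate 2). These lists also hold the peaks found in a single library, and the shared peaks alone had a median of 292 bp in replicate 1 and of 375 bp in replicate 2. A combined region spans the overlapping peaks of both libraries and is at least as wide as each of them.

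The 10 widest regions of X measured 1956 to 3153 bp and were spread from 548372 to 21196110. The widest, ORC6092 at X 12946349 to 12949501, was 1 peak of 2853 bp in replicate 1 and 1 peak of 3153 bp in replicate 2. It stood at the edge of a stretch of 142070 bp without a combined region and 447 bp from its next neighbour. ORC5451 (X 1505246 to 1507834, 2589 bp) and ORC5452 (X 1510158 to 1512293, 2136 bp) lay 2323 bp apart in one run of 8 regions. ORC5617 (X 3999748 to 4002276, 2529 bp) consisted of 2 peaks in replicate 1 and 1 in replicate 2. Like ORC5617, 6 of the 10 joined several peaks of a library, as did 87 of all 1195 X regions. Joining several peaks itself makes a region wide, so this count was partly fixed by ranking on width. ORC5405 measured 2309 bp, ORC5566 2308 bp, ORC6032 2277 bp, ORC5789 2199 bp, ORC6552 2020 bp and ORC6490 1956 bp. The 10 had combined scores of at most 4.01 with a median of 2.35, and 7 of them scored above the X median of 2.19. None was among the 10 highest scores of X, and ORC5566, with rank 55 of 1195, was the highest of them. In 7 of the 10 the region lay in a run of at least 5 regions, as did 43.9% of all X regions. None was without a neighbour within 10 kb, where 15.2% of all X regions were.

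Most peaks called on X in replicate 1 were called in replicate 2 as well. Of the replicate 1 peaks on X, 1269 of 1487 (85.3%) overlapped a replicate 2 peak by at least 1 bp, where 85.1% of all peaks in the replicate 1 list did so. Of the replicate 2 peaks on X, 1215 of 1962 (61.9%) overlapped a replicate 1 peak, where 63.1% of the whole replicate 2 list did so. Both shares are near those of the whole lists. Against 2L, 3L and 3R together, the odds of being shared on X were 0.902 times as high in replicate 1 (95% exact interval 0.763 to 1.07) and 0.849 times as high in replicate 2 (0.763 to 0.944). The replicate 2 interval lay below 1 against 2L and 3L, and reached 1.01 against 3R. In replicate 1 the odds ratio was 0.721 (0.583 to 0.891) against 3R. It was 0.924 (0.747 to 1.14) against 2L and 1.08 (0.888 to 1.32) against 3L. Among replicate 1 peaks of at least 36 bp it was still 0.739 (0.571 to 0.956) against 3R.

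In replicate 2 a slightly lower share of peaks was shared on X (61.9%) than on the 3 autosome arms (65.7%), and X had more very narrow peaks. Peaks under the 36 nt read length made up 12.5% of replicate 2 peaks on X (245 of 1962), against 9.81% on the 3 autosome arms (odds ratio 1.31, 1.12 to 1.54). In replicate 1 they made up 8.47% on X and 7.96% on the arms (odds ratio 1.07, 0.862 to 1.32). Among replicate 2 peaks of at least 36 bp, 70.2% on X were shared (68.0 to 72.3), against 72.2% on the arms (71.0 to 73.3), and the odds ratio of 0.907 had an interval of 0.804 to 1.02. From 36 to under 150 bp the replicate 2 share was also lower on X, at 24.7% against 29.9% on the arms, with overlapping intervals. The part of narrow peaks in the lower agreement was not tested further.

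Agreement on X rose with the width of the peak, and the libraries parted mainly among narrow peaks. In replicate 1, 49 of 126 peaks under 36 bp on X were shared (38.9%, 30.3 to 48.0), 69.1% of those from 36 to under 150 bp and 92.7% of those from 150 to under 300 bp. Of the replicate 1 peaks from 500 to under 800 bp, 178 of 178 were shared. In replicate 2 the share was 4.08% below 36 bp (10 of 245, 1.97 to 7.38), 24.7% from 36 to under 150 bp, 69.2% from 150 to under 300 bp and 89.9% from 300 to under 500 bp. Peaks of at least 800 bp were shared in 111 of 112 cases in replicate 1 and in 174 of 176 in replicate 2. The intervals of X and of the 3 autosome arms overlapped in each width class of both libraries.

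**Figure D2:**
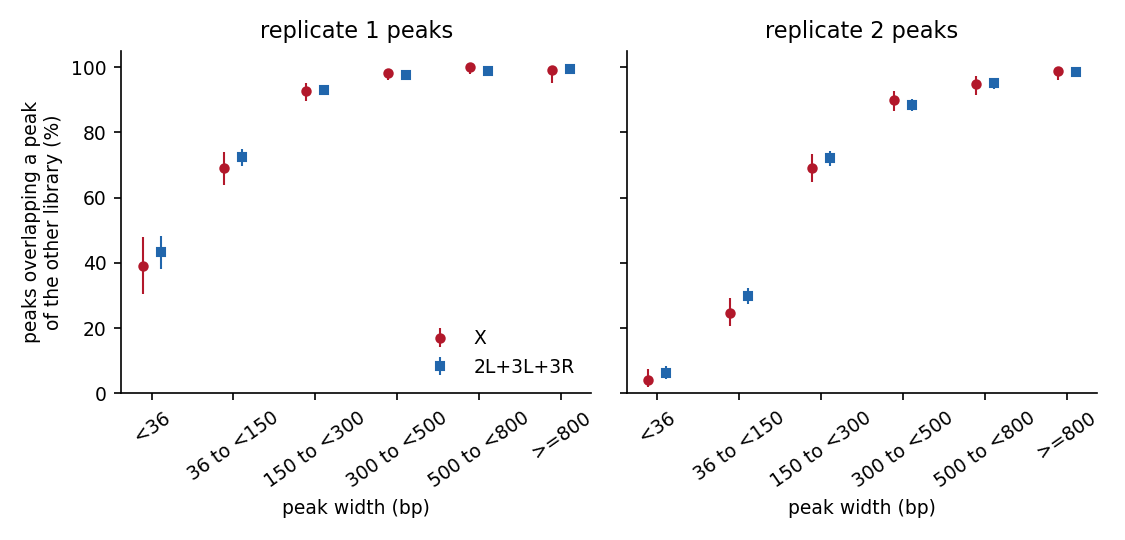
Share of peaks, in percent, that overlap a peak of the other library by at least 1 bp, by peak width in bp, for replicate 1 (left) and replicate 2 (right). Circles are X, squares are 2L, 3L and 3R together, and bars are 95% exact binomial intervals. Peaks under 36 bp on X were shared in 38.9% of cases in replicate 1 and 4.08% in replicate 2, and from 500 bp upwards at least 94.9% were shared in both.

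Where both libraries called a region of X, they mostly placed it at nearly the same position. Combined regions are made of overlapping peaks, so some common stretch was fixed beforehand and the shift was bounded by the peak widths. Of the 1195 regions, 1108 (92.7%) consisted of 1 peak from each library, and 87 joined several peaks of a library (68 with several replicate 1 peaks and 20 with several replicate 2 peaks). In the 1108 regions the midpoints of both peaks differed by a median of 39 bp, and by at most 137 bp in 90% of them, with a largest difference of 528.5 bp. The stretch common to both peaks took up a median of 68.1% of the region, against 63.8% on 2L, 66.9% on 3L and 66.6% on 3R. The replicate 2 peak was the wider in 794 of the 1108 regions (71.7%), with median widths of 361.5 bp in replicate 2 and 294.5 bp in replicate 1. The arms gave 68.8% to 70.4%. Across these regions Spearman's rho of the widths was 0.74, as a description over peaks of the same libraries.

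Agreement varied among the bins of X. In the 22 whole 1 Mb bins, 71.9% to 94.5% of replicate 1 peaks and 50% to 73.3% of replicate 2 peaks were shared. The lowest share of replicate 1 was in bin 13 (46 of 64 peaks, 95% exact binomial interval 59.2 to 82.4) and the highest in bin 11 (52 of 55, 84.9 to 98.9). In replicate 2 the lowest was in bin 15 (41 of 82, 38.7 to 61.3) and the highest in bin 4 (55 of 75, 61.9 to 82.9). These extremes were picked out of 22 bins after their values were seen. Spearman's rho between the number of combined regions in a bin and the share of its peaks that were shared was 0.47 for replicate 2 and 0.18 for replicate 1, as a description over 22 bins whose combined regions are themselves made of shared peaks. The last stretch of 0.416 Mb beside the centromere held 5 combined regions, with 5 of 14 replicate 2 peaks shared. Peak numbers in windows of 100 kb went together between the libraries, with a Spearman's rho of 0.95 over the 224 windows of X, against 0.95 on 2L, 0.94 on 3L and 0.92 on 3R. Replicate 2 had more peaks than replicate 1 in 157 windows, as many in 48 and fewer in 19.

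Peaks found in a single library on X were narrow, and most lay within 10 kb of a combined region. There were 218 such peaks in replicate 1 and 747 in replicate 2. In replicate 1 they measured 63 bp at the median, against 292 bp for shared peaks, and in replicate 2 they measured 78 bp, against 375 bp. Within 10 kb of a combined region lay 91.7% of those in replicate 1 and 84.3% of those in replicate 2, and within 2 kb lay 58.7% and 49.7%. Combined regions of X themselves had another one within 10 kb in 84.8% of cases and within 2 kb in 47.6%. The replicate 2 shares were near these. On the 3 autosome arms the shares of single-library peaks within 2 kb were 60.5% in replicate 1 and 52.2% in replicate 2. The intervals of X and the arms overlapped for these peaks. Their median score on X was 1.60 in replicate 1, against 1.82 for shared peaks, and 2.27 in replicate 2, against 2.52 for shared peaks. There were 3 single-library peaks of at least 800 bp on X, picked out after their values were seen. Rep1_ORC7115 (X 5394413 to 5395308) measured 896 bp, Rep2_ORC9385 (X 8188276 to 8189624) 1349 bp and Rep2_ORC9914 (X 14136377 to 14137185) 809 bp.

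Neighbouring regions of X were mostly a few kilobases apart, and a small share of the distances held much of the chromosome. The median distance was 5702 bp on X (95% order-statistic interval 5167 to 6622), against 5839 bp on 2L, 5746 bp on 3L and 6417.5 bp on 3R, whereas the mean on X was 18121 bp. Distances under 1 kb made up 18.8% on X (224 of 1194, 16.6 to 21.1), against 18.7% on 2L, 19.0% on 3L and 14.7% on 3R (12.9 to 16.6). Distances of at least 100 kb made up 4.19% on X (50 of 1194, 3.12 to 5.48). They made up 4.0% on 2L, 3.40% on 3L and 3.26% on 3R. A neighbour within 5 kb was found for 70.5% of X regions (67.8 to 73.0). The odds ratio of X to the 3 arms was 1.07 (0.928 to 1.24) over combined regions, 1.18 (1.02 to 1.37) over replicate 1 peaks and 1.33 (1.16 to 1.54) over replicate 2 peaks. The interval thus lay above 1 in each single list and included 1 in the combined list.

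**Figure D3:**
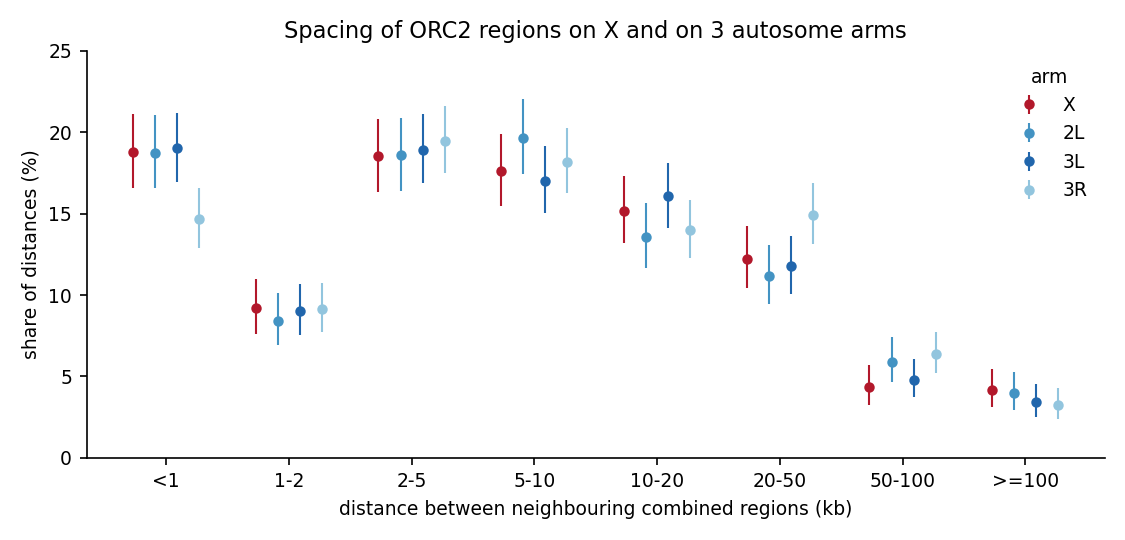
Share of the distances between neighbouring combined regions, in percent, by distance class in kb, for X and the autosome arms 2L, 3L and 3R. Points are shares and bars 95% exact binomial intervals. The intervals of X overlap those of 2L and 3L in each class and that of 3R in each except under 1 kb, where X has 18.8% and 3R 14.7%.

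Windows of 100 kb showed how unevenly X was filled. Of the 224 whole windows, 33 (14.7%) held no combined region, and 54 windows (24.1%) sufficed to hold 50% of the regions. The variance of the counts was 3.24 times their mean on X, against 3.69 on 2L, 3.73 on 3L and 3.27 on 3R. No peak of either library lay in 19 windows. Counts of adjacent windows were weakly related (Spearman's rho 0.14 over 223 pairs) and those of windows 1 further apart were not (-0.02 over 222 pairs), so full and empty windows of X stood side by side. The fullest window, X 13200001 to 13300000, held 20 combined regions beside 23 replicate 1 peaks and 22 replicate 2 peaks. X 2000001 to 2100000 held 17 regions beside 22 replicate 1 peaks and 24 replicate 2 peaks. Then X 2500001 to 2600000, X 12600001 to 12700000 and X 19500001 to 19600000 held 15 regions each.

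Runs of at least 5 regions, each within 10 kb of the next, held 525 of the 1195 X regions (43.9%, 41.1 to 46.8) on 8.02% of the chromosome. There were 70 such runs on X, or 3.12 per Mb, against 4.14 on 2L, 3.55 on 3L and 2.65 on 3R. The ratio of X to the 3 arms together was 0.920 (95% exact interval 0.696 to 1.2). Region by region, the odds of lying in a run on X were 0.958 times those on the 3 arms together (0.839 to 1.09) in the combined list. The odds ratio was 1.03 (0.913 to 1.16) over replicate 1 peaks and 1.28 (1.15 to 1.44) over replicate 2 peaks, so its side of 1 depended on the list. Against 2L it was 0.695 (0.590 to 0.819) for combined regions, 0.798 (0.687 to 0.926) for replicate 1 and 1.14 (0.989 to 1.31) for replicate 2. Against 3R it lay above 1 in each list, at 1.22 (1.04 to 1.43) for combined regions, 1.25 (1.09 to 1.44) for replicate 1 and 1.45 (1.27 to 1.65) for replicate 2. Of the 70 runs of X 14 had at least 10 regions, against 8 of 95 on 2L, 11 of 87 on 3L and 15 of 74 on 3R. The longest run of X had 18 regions, against 13, 21 and 23 on 2L, 3L and 3R. Regions with no neighbour within 10 kb numbered 182 on X (15.2%), against 15.1% on the 3 arms together.

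The 5 runs of X with the most regions lay in the distal 4 Mb and near 13 Mb. The largest, X 1988028 to 2053198, had 18 regions on 65.2 kb (ORC5487 to ORC5504), with 22 peaks in each library. Its regions had a median width of 395.5 bp, a median score of 2.19 and a median distance of 2912 bp. X 2498080 to 2557989 had 14 regions (ORC5538 to ORC5551) on 59.9 kb with a median distance of 4223 bp. X 12621725 to 12659650 had 13 regions (ORC6073 to ORC6085) on 37.9 kb, and these covered 24.1% of the run with a median width of 630 bp. Its median score of 3.06 was the highest of these 5 runs. X 3565322 to 3598688 had 12 regions on 33.4 kb, with a median distance of 1024 bp. X 13264896 to 13307519 also had 12, but these were narrow, with a median width of 310 bp and a widest of 464 bp, and covered 8.77% of the run. That run ended where a gap of 149956 bp without a peak of either library began.

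Lone regions of X had a lower median width and a higher median score than grouped ones, with intervals that overlapped those of both classes of runs. The 182 lone regions had a median width of 366 bp (95% order-statistic interval 338 to 409), against 436.5 bp (407 to 477) in groups of 2 to 4, 448 bp (403 to 490) in runs of 5 to 9 and 427 bp (381 to 544) in longer ones. Their median score was 2.31 (2.23 to 2.43), against 2.15 (2.09 to 2.21), 2.18 (2.11 to 2.24) and 2.17 (2.08 to 2.25). On the 3 autosome arms lone regions were likewise narrower (357 bp, against 447.5, 454 and 472.5 bp) and higher in score (2.18, against 2.02, 1.95 and 1.98).

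Gaps, that is distances of at least 100 kb between neighbouring combined regions, numbered 50 on X and took up 8.28 Mb, or 36.9% of it. They took up 35.2% of 2L, 33.9% of 3L and 28.1% of 3R. Per Mb the number on X was 1.18 times that on the 3 arms (95% exact interval 0.840 to 1.65). In the single lists the share of length was 34.1% of X, against 30.5% of the 3 arms, in replicate 1, and 29.2% of X, against 24.0% of the 3 arms, in replicate 2. The median gap of X was 136636 bp, against 146160 to 149415 bp on the other arms, and 13 gaps of X reached 200 kb, against 10 on 2L, 11 on 3L and 11 on 3R. Between neighbouring gaps of X lay a median of 18 regions and at most 106.

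**Figure D4:**
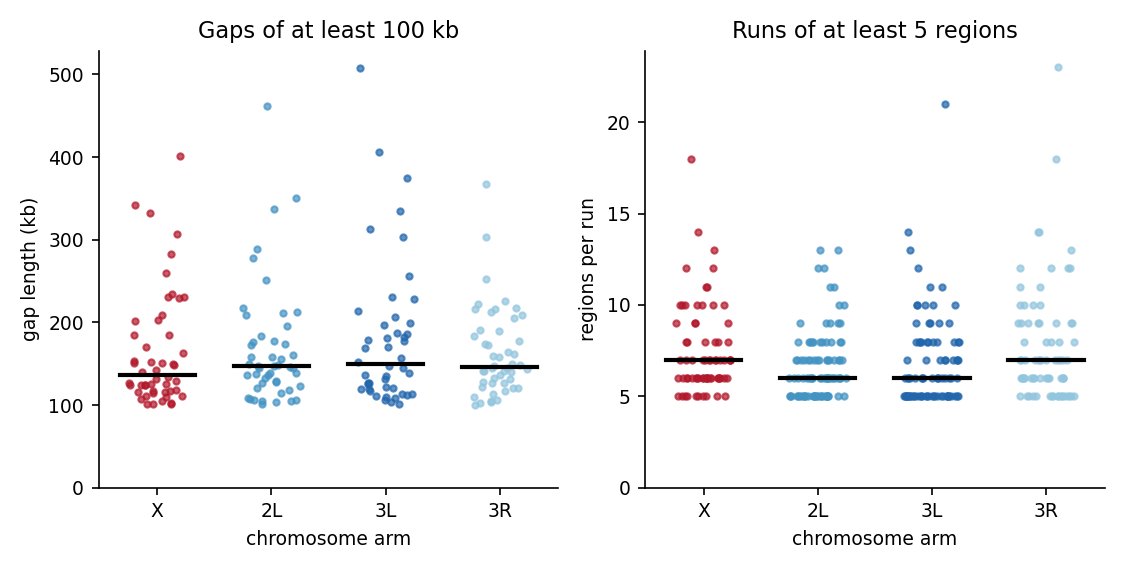
Left: length in kb of each gap of at least 100 kb between neighbouring combined regions, by chromosome arm. Right: number of regions in each run of at least 5 regions, neighbours within 10 kb. Each dot is a gap or a run and black lines are medians. X has 50 gaps, the longest of 401711 bp, and 70 runs, the largest of 18 regions.

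The libraries agreed on most of the gap length of X. Replicate 1 alone gave 45 gaps (7.64 Mb) and replicate 2 alone gave 44 (6.54 Mb), and they coincided over 6.18 Mb, which is 80.9% of the replicate 1 and 94.4% of the replicate 2 gap length. Inside the 50 combined gaps lay 16 replicate 1 peaks, or 1.93 per Mb, and 73 replicate 2 peaks, or 8.82 per Mb. Of the 50, 18 held no peak of either library (36.0%, 95% exact binomial interval 22.9 to 50.8), against 39 of 142 on the 3 arms (27.5%, 20.3 to 35.6). By arm these were 19 of 48 on 2L, 7 of 46 on 3L and 13 of 48 on 3R. The 18 gaps covered 2.74 Mb, or 12.2% of X.

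The longest gap of X, 11929508 to 12331218 (401711 bp), contained 2 replicate 2 peaks, of 15 and 117 bp, and none from replicate 1. It lay between ORC6053 and ORC6054, with scores of 9.40 and 6.38. X 21504153 to 21846357 (342205 bp) lay between ORC6566, with a score of 8.30, and ORC6567, with 1.62, with 2 replicate 1 peaks and 1 replicate 2 peak inside. X 14141768 to 14474452 (332685 bp) was the longest without a peak of either library, and its neighbours ORC6176 and ORC6177 scored 2.12 and 3.11. X 21942342 to 22249471 (307130 bp) held 6 peaks of replicate 2, the widest of 284 bp, and none of replicate 1. X 7218926 to 7502083 (283158 bp) held 3 peaks of replicate 2, of 83 to 222 bp, and none of replicate 1.

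The proximal part of X held gaps with and without peaks of the single libraries. From X 19782172 to 20898741 there followed 5 gaps of 259877, 133601, 129742, 101213 and 234966 bp, and none of them held a peak of either library. The last 3 of these, from X 20396351 to 20898741, stood so close that 92.7% of the 502 kb was gap and 5 combined regions lay between them. Nearer the centromere, the gap X 21246776 to 21475852 (229077 bp) held 6 peaks of replicate 2 and none of replicate 1, and X 21942342 to 22249471 was like it. Peaks of both libraries lay in X 21504153 to 21846357 (2 of replicate 1 and 1 of replicate 2). They also lay in X 22257482 to 22409397 (1 of each).

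Regions at the borders of the gaps of X had a higher median score than the others. The 100 border regions had a median score of 2.35 (95% order-statistic interval 2.24 to 2.57), against 2.17 (2.13 to 2.21) for the other X regions. In replicate 1 the medians were 1.92 at borders and 1.81 elsewhere, and in replicate 2 they were 2.74 and 2.50. On the 3 autosome arms the medians were 2.18 (2.07 to 2.26) and 2.01 (1.99 to 2.03). Of the 100 border regions of X, 41 had no neighbour within 10 kb, against 15.2% of all X regions and 47.0% of border regions on the 3 arms. A border region has an empty side by definition, so more lone regions were bound to be found there. Lone regions of X also had a higher median score, and whether the border scores are separate from this was not tested. The median width of border regions was 472.5 bp (344 to 558), against 423 bp (403 to 447) for the other regions.

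The median score on X was higher than on each autosome arm compared. The authors' score carries no unit, and the arms were compared by it within each list. The median of the combined list was 2.19 on X (95% order-statistic interval 2.14 to 2.23), against 2.05 on 2L, 2.05 on 3L and 1.96 on 3R, and 63.2% of X regions scored above the median of the 3 arms (95% exact binomial interval 60.4 to 65.9). By replicate 1 scores the share was 55.9% (53.3 to 58.4), and by replicate 2 scores it was 62.5% (60.3 to 64.6). Scores of at least 3 were held by 15.6% of X regions (13.6 to 17.7), against 11.4% on 2L, 10.1% on 3L and 8.20% on 3R. The difference was seen in each width class: 58.6% of X regions under 300 bp (53.1 to 63.9) and 67.2% of those of at least 800 bp (60.3 to 73.6) scored above the median of autosome regions of that class.

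The ratio of the replicate 2 score to the replicate 1 score was higher on X than on the other arms. The scale of the score in each list is not stated, so the ratio is read only for its difference among arms. At shared regions the replicate 2 score was a median 1.36 times the replicate 1 score on X (1.33 to 1.39), against 1.30 on 2L (1.28 to 1.33), 1.30 on 3L (1.28 to 1.32) and 1.28 on 3R (1.27 to 1.30). The replicate 2 score was the higher at 1103 of 1195 X regions (92.3%), against 89.3% on the 3 arms. Of the X regions, 57.8% had a ratio above the median of the 3 arms (55.0 to 60.6). Which property of the libraries goes with this was not tested, since the lists give neither depth nor coverage. Across X regions the scores of both libraries had a Spearman's rho of 0.65, as a description.

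**Figure D5:**
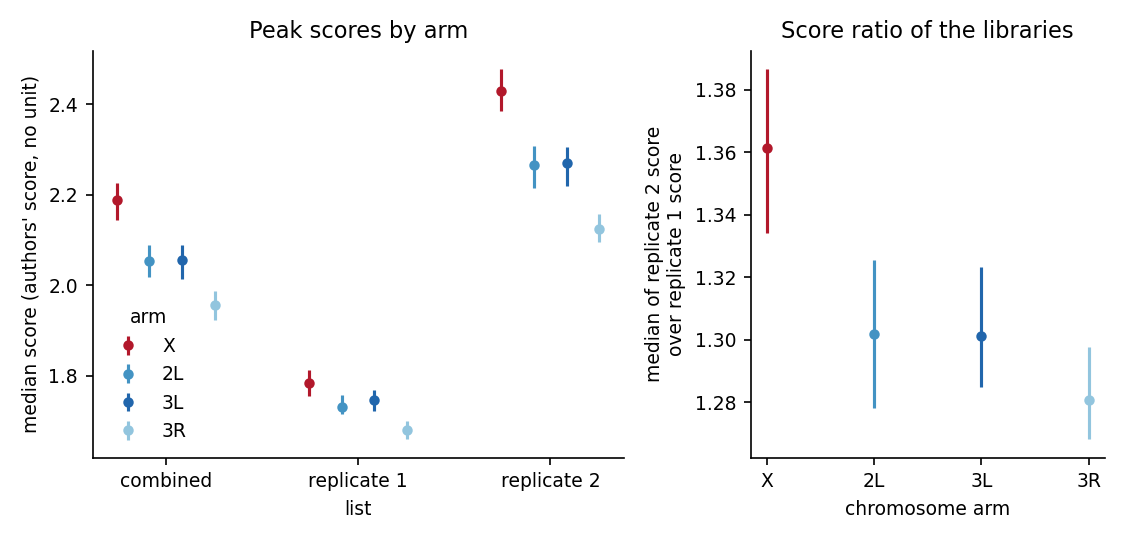
Left: median of the authors' score (no unit) of regions or peaks on X, 2L, 3L and 3R in the combined list and in each replicate list. Right: median over combined regions of the replicate 2 score divided by the replicate 1 score. Bars are 95% order-statistic intervals, and the axes do not start at 0. X has the highest median in each list (2.19 in the combined list) and the highest ratio (1.36).

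The 10 regions of X with the highest combined scores were narrow. Their widths ran from 144 to 438 bp with a median of 292 bp, and 2 of them exceeded the median width of X. Over all 1195 X regions, however, score and width were hardly related (Spearman's rho -0.05, a description). Each of the 10 was 1 peak per library, as were 92.7% of all X regions, and scored higher in replicate 2, as did 92.3% of all. ORC5911 (X 9396305 to 9396736) scored 9.90 and ranked 1 among the X regions by its replicate 1 score and 2 by its replicate 2 score. The highest by the replicate 2 score was ORC6053 (X 11929335 to 11929507), with 3.14 in replicate 1, where it ranked 64, and 15.7 in replicate 2. Its replicate 1 peak measured 55 bp and its replicate 2 peak 173 bp. ORC5533 (X 2441161 to 2441442) scored 6.27 in replicate 1 and 10.9 in replicate 2, and ORC5800 (X 7572896 to 7573230) scored 5.53 and 10.0176. The combined score was 7.75 for ORC6116 (X 13213264 to 13213526), which lay in a run of 10 regions, and 6.85 for ORC5526 (X 2313674 to 2313817), which had no neighbour within 10 kb. ORC6469 (X 19243122 to 19243559) scored 6.53, with a peak of 124 bp in replicate 1 and 438 bp in replicate 2. ORC5570, ORC5666 and ORC6566 complete the 10, with combined scores of 9.45, 8.86 and 8.30. ORC5666 stood at the end of a gap of 203509 bp and ORC6566 and ORC6053 at the start of gaps of 342205 and 401711 bp. Thus 3 of these 10 picked regions bordered a gap, where 100 of all 1195 X regions did. Genes are not named for these regions, as gene positions of release 5.1 were not used here.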

How the data were processed

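ORC2 chromatin immunoprecipitation in SuUR mutant salivary glands was sequenced with 36 nt reads in the design text, per the labels. Peaks had been called with PeakSeq on FlyBase release 5.1, per the file headers. The deposited lists give start, end and the authors' score for each peak. Neither the scale of that score nor the aligner, thresholds and control used in calling are stated in the labels or headers. Depth is unknown.

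Positions were taken as written. Overlap meant at least 1 bp. Arm lengths ran to the last peak of any list. Arm 2R was not compared. Gaps, runs, windows and bins were computed with Python 3.11.15, numpy 2.4.6, pandas 2.3.3 and scipy 1.17.1, and the functions were tested on simulated lists. Intervals (95%) were exact Poisson, exact conditional (density and odds ratios), Clopper-Pearson or order-statistic. No test was possible between samples. Alternatives used other lists, scores, widths, overlaps and distances.

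Named by rule were the 10 highest-scoring and 10 widest regions of X, the 5 longest gaps, 5 largest runs and 5 fullest windows, and the fullest and emptiest bins. Members and rules were chosen with earlier results of these data known. Other bins, gaps and peaks named were picked after their values were seen. No sequences are shown, since no genome of release 5.1 was used here.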

Additional observations from a re-analysis of the deposited data

How the results depend on the processing

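Of 92 recomputed values of 17 results, 44 stayed within the 95% interval, within 1.5 times the number or within the SD of the single lists, and 48 moved by more. Among these 17, no result whose interval excluded equality changed direction, which could be read only for ratios and for shares above an autosome median. Comparisons with single arms were not among the 17. The odds ratio of lying in a run, X to 2L, was 0.695 (0.590 to 0.819) for combined regions. It was 1.14 (0.989 to 1.31) for replicate 2 peaks, so its side of 1 changed. The density ratio of X to the autosome arms, 0.997 with an interval that includes 1, lay above 1 in both single lists and with the score limit below. Leaving out a library leaves the other's list, so its values are those of single lists. Between these 2 lists the density of X ranged from 66.3 to 87.5 per Mb, its ratio to the autosome arms from 1.00461 to 1.06, the median width from 251 to 254 bp and the median spacing from 2751 to 4081 bp. A neighbour within 5 kb was found for 79.4% to 85.4%, runs numbered 102 to 149 and held 56.2% to 70.5% of peaks, and gaps took up 29.2% to 34.1% of X. Windows had a variance of 4.08 to 4.94 times the mean, and 8.48% to 14.3% were empty. The share of X above the autosome median score was 55.9% to 62.5%.

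With each list kept only at scores at or above its own median, the density was 31.6 per Mb and its ratio to the autosome arms 1.27, which follows from the higher scores of X. Sharing between the lists so reduced was 75.2% in replicate 1 and 50.9% in replicate 2, since partners below the limit were removed too. Against the whole other list, 91.3% of replicate 1 peaks in the upper 50% by score were shared and 79.4% of those in the lower 50%. In replicate 2 these shares were 67.1% and 56.8%. With the same limit the median spacing was 11530 bp, 52.1% of regions had a neighbour within 5 kb, 27 runs held 23.6% of regions, gaps took up 43.8% of the length and the variance was 2.30 times the mean. Reciprocal overlap of 50% gave 56.1% in replicate 1 and 42.5% in replicate 2, midpoints within 500 bp 89.8% and 67.9%, and peaks of at least 36 bp in both lists 89.1% and 67.8%. Other settings changed what they define. A neighbour within 2 kb was found for 47.6% and within 10 kb for 84.8%. Linking at 5 kb gave 31 runs with 15.6% of regions, linking at 20 kb put 73.2% in runs, and 14 runs (13.5%) had at least 10 regions. Gaps of at least 50 kb numbered 102 (52.7% of the length) and of at least 200 kb 13 (15.5%). Merging all peaks of both lists left 28.0% of X in gaps, and leaving out the last 2 Mb 33.2%. Empty windows made up 30.8% at 50 kb, 5.36% at 200 kb and 0% at 500 kb. Why other values moved was not tested.

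No paired analysis was possible because the lists belong to 1 group and no result came from a test between samples; the agreement of the libraries could not be recomputed with one left out. Depth and mappability were not available, so sparse stretches of X cannot be told apart from sequence without readable reads.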

Other observations

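The scaffold XHet, which holds heterochromatic sequence of X that was not placed on the arm, had 5 combined regions beside 9 peaks in each library, of which 5 in each were shared. Those 5 regions measured 625 bp and scored 1.90 at the median. No length of this scaffold was used, so no density is given.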
